A study of Mus musculus with 7 samples.

Results

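The cells described here were taken as macrophages of mouse atypical teratoid rhabdoid tumours, brain tumours that lack the chromatin remodelling subunit SMARCB1. They were chosen by their raw UMI counts. A UMI (unique molecular identifier) marks 1 captured mRNA molecule. A cell was kept with at least 500 UMIs, at least 200 genes and at most 20% of its UMIs from mitochondrial genes. It was then taken as a member with at least 3 UMIs of C1qa, C1qb and C1qc together, at least 1 UMI of Ms4a7, no UMI of the microglia genes P2ry12, Tmem119, Sall1 and Siglech, no UMI of Cd3d, Cd3e or Cd3g, and not both Mki67 and Top2a. Of 23938 kept cells, 978 met the rule. They are called Ms4a7/C1q cells below. The values of these rule genes chose the cells and are given as a description only.

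All animals were Rosa26-creERT2::Smarcb1 fl/fl mice, in which CreERT2 runs from the ubiquitous Rosa26 promoter, and their mothers received 50 mg/kg tamoxifen at day 6.5 after conception, so that Smarcb1 could be lost in host cells as well as tumour cells. The MYC group held 5 libraries of 4 animals. Replicate 1 was a basal cerebrum tumour taken at 12 weeks. Replicates 2 and 3 came from the trigeminal nerve and the lateral cerebellum of 1 animal at 19 weeks. Replicate 4 was a trigeminal nerve tumour taken at 21 weeks, and replicate 5 a basal cerebrum tumour taken at 27 weeks. The SHH group held 2 animals with tumours of the striatum and subventricular zone, taken at 14 weeks (replicate 1) and 16 weeks (replicate 2). Group, site and age cannot be told apart in this design, and it holds no brain without a tumour. The data do not check the deletion, because a count at the 3′ end does not show whether the deleted exons are present: Smarcb1 was at 16.9 and 21.4 CPM (UMI counts of the summed cells, scaled to the same total in each library) in Ms4a7/C1q cells of MYC replicates 4 and 5, against 20.7 and 54.6 CPM in SHH replicates 1 and 2.

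Macrophages of the brain include microglia, which settle in the tissue before birth, macrophages of its borders, and cells that enter from blood monocytes during disease. C1qa, C1qb and C1qc encode the chains of C1q, the first component of the classical complement pathway, and are made by most brain macrophages. Ms4a7 encodes a membrane protein of the MS4A family that is low in undisturbed microglia and higher in border macrophages and in macrophages that derive from monocytes. P2ry12 (a purinergic receptor), Tmem119, Sall1 (a transcription factor) and Siglech are markers of homeostatic microglia, and microglia can lower them when activated. Csf1r is the receptor for the macrophage growth factors CSF1 and IL-34, and Adgre1 encodes F4/80.

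The rule genes lie on several chromosomes. In GRCm38, Ms4a7 (minus strand) spans chr19:11321039-11336146, and the C1q genes form a cluster on the minus strand, with C1qb at chr4:136880129-136886187, C1qc at chr4:136889804-136893065 and C1qa at chr4:136895917-136898803. The start regions of 3 genes that set the cell type are shown from RefSeq, build GRCm38.p6, as 250 bases before and 50 after the annotated start, 5′ to 3′ on the coding strand. They cover chr19:11336097-11336396, chr4:136886151-136886450 and chr4:136892865-136893164. Capitals mark GAGGAA or its reverse complement TTCCTC, a core of the type bound by PU.1, and TGCTGA or its reverse complement TCAGCA, a core found within the recognition element of Maf factors. PU.1 is a transcription factor that macrophages require.
Ms4a7: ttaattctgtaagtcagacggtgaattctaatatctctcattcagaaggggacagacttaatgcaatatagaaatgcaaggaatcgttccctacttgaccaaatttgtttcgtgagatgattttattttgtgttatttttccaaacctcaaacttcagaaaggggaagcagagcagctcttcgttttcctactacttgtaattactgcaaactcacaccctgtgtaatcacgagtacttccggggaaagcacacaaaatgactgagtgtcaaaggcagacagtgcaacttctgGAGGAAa
C1qb: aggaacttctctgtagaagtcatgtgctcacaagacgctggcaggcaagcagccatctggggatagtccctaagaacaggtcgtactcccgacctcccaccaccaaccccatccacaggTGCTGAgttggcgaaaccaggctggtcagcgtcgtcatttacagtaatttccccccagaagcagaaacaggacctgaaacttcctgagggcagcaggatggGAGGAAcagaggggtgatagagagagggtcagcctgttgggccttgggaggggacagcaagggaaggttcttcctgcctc
C1qc: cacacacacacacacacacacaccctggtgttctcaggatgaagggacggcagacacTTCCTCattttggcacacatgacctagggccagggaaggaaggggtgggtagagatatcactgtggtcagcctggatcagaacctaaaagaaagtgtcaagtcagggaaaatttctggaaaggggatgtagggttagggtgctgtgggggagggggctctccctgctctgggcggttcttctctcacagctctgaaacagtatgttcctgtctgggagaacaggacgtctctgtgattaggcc
A GAGGAA match was present in each of the 3 windows, against 28.3% of 32851 promoters of the same length, and C1qb also held TGCTGA, which occurs in 19.5% of them. The window of Ms4a7 is the more upstream of the 2 starts listed for it, and neither motif was found at the other start. The window of C1qa is not shown, and the Ms4a7 start that holds the match was the one printed. The matches are therefore not a count over every start of the rule genes. The letters are a description and not evidence of binding.

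The members were unevenly spread over the libraries. MYC replicate 5 held 761 of the 978 and MYC replicate 4 held 100. SHH replicate 1 held 58 and SHH replicate 2 held 48. MYC replicates 1, 2 and 3 held 5, 2 and 4. The median UMI count of a member was 2301 in MYC replicate 4 and 4874 in MYC replicate 5, against 2396 in SHH replicate 1 and 2124.5 in SHH replicate 2. Summed over members, these 4 libraries gave 236991 and 5086440 UMIs in MYC replicates 4 and 5, against 144733 and 109792 in SHH replicates 1 and 2. Only these 4 animals, each with more than 20 members, entered the tests on genes. The remaining MYC animals gave 35032 (replicate 1) and 82556 UMIs (replicates 2 and 3). In the whole series 218 barcodes occurred in more than 1 library, 20 members carried such a barcode, and no barcode was shared between members of different libraries.

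The library of MYC replicate 5 stood apart in a second way. Of its 761 members, 414 (54.4%) held at least 5 UMIs of 17 genes of MYC tumour cells, among them Col1a2, Cryab, Epcam and Krt8, and 361 (47.4%) held at least 20. In MYC replicate 4 the share with at least 5 was 2% of members, in SHH replicate 1 it was 3.45% and in SHH replicate 2 it was 0 of 48. Members of MYC replicate 5 with such UMIs had a median of 8097 UMIs and 16 C1q UMIs. Those without had a median of 3511 UMIs and 54 C1q UMIs. Lyz2, the lysozyme of myeloid cells, stood at 1273 CPM in the cells with tumour-gene UMIs and at 6577 CPM in the cells without, and Csf1r at 71.2 and 273 CPM, while Cryab stood at 1934 and 110 CPM. T-gated cells of the same library (at least 2 Cd3 UMIs and no Csf1r) also held these transcripts: 62.3% had at least 5 tumour-gene UMIs, 22.9% had at least 3 C1q UMIs and 26.7% had an Ms4a7 UMI. In T-gated cells of MYC replicate 4 those shares were 0.987%, 0.548% and 0.439%, against 0.809%, 9.43% and 0.270% in SHH replicate 1 and 4.43%, 0% and 0% in SHH replicate 2. A doublet score (Scrublet) marked 216 of the 978 members, 208 of them in MYC replicate 5. Why these barcodes carried both kinds of transcript was not tested, and the tests below other than that against monocyte-gated cells are given with all members and again without the 420 members that held at least 5 tumour-gene UMIs. Values are over all members unless stated. Of the 17 tumour genes, 7 are the marker list named further on and 10 were added, with this second setting, after seeing the data.

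**Figure D1:**
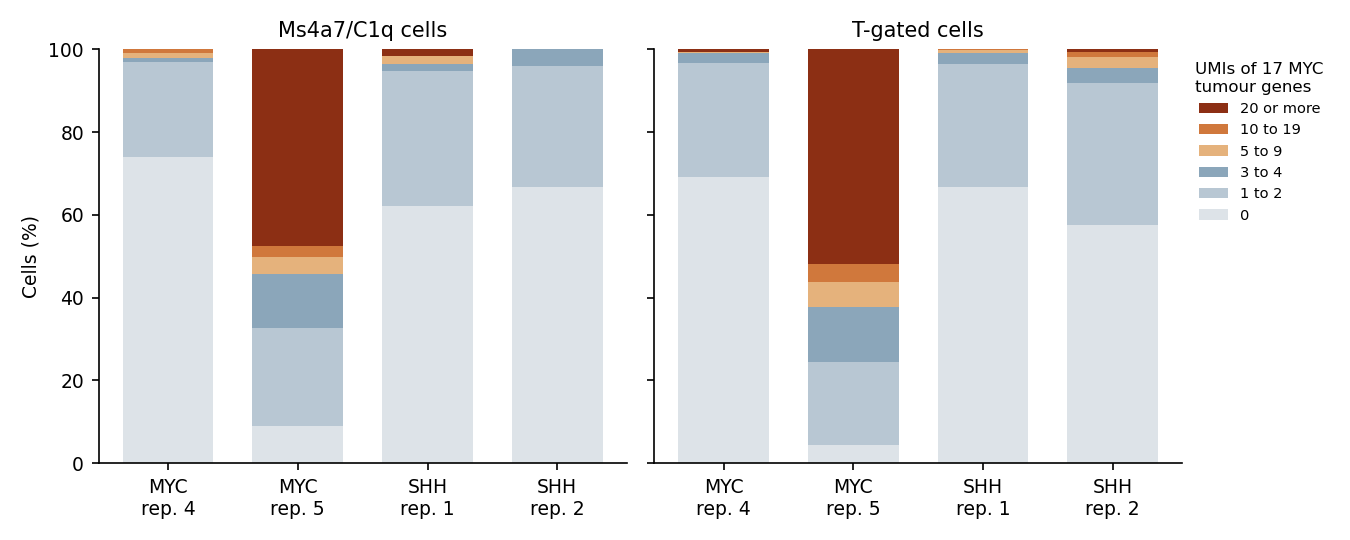
Share of cells (%) by the number of UMIs of 17 MYC tumour genes in a cell, for Ms4a7/C1q cells (left) and T-gated cells (right) of the 4 libraries with more than 20 members. MYC replicate 5 stands apart in both panels, with 47.4% of its Ms4a7/C1q cells at 20 or more UMIs.

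The rule draws sharp edges through graded values. Members with only 3 or 4 C1q UMIs numbered 134, of which 124 came from MYC replicate 5, 88.8% held tumour-gene UMIs and 14.9% held a Csf1r UMI. Just outside, 182 cells had 2 C1q UMIs, with 92.9% and 9.89%. On Ms4a7, 232 members held a single UMI, and 979 cells met the rest of the rule with none. Of cells that failed only on the microglia genes, 788 held 1 such UMI, with a median of 49.5 C1q UMIs and Csf1r in 65.5%, and 2304 held more, with a median of 71 C1q UMIs and Csf1r in 78.8%. The members' own median was 33 C1q UMIs, with Csf1r in 53.0%. Because a shallow cell can read 0 for 4 low genes, membership also depended on depth: when each cell was thinned to 1500 UMIs, MYC replicate 5 had 1390 members in place of 761, MYC replicate 4 had 79 in place of 100 and MYC replicate 3 had 3 in place of 4, while MYC replicates 1 and 2 had 10 and 4 in place of 5 and 2. SHH replicate 1 had 90 in place of 58, and SHH replicate 2 had 60 in place of 48. Of the members as first counted, 11 in MYC replicate 4, 14 in SHH replicate 1 and 15 in SHH replicate 2 were too shallow to be thinned.

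Per animal, Ms4a7/C1q cells made up 16.1%, 19.4%, 46.9% and 19.1% of the C1q-high cells of the 4 MYC animals (replicate 1, replicates 2 and 3 joined, replicate 4 and replicate 5), against 3.14% and 13.2% in the SHH animals. C1q-high cells are those that met the C1q, Cd3 and cycling criteria whatever their Ms4a7 and microglia genes. Every MYC animal lay above both SHH animals. The 95% Wilson intervals ran from 40.4% to 53.6% in MYC replicate 4 and from 17.9% to 20.4% in MYC replicate 5, against 2.44% to 4.04% in SHH replicate 1 and 10.1% to 17.05% in SHH replicate 2. They were wide in MYC replicate 1 (7.09% to 32.6%, 5 of 31 cells) and in MYC replicates 2 and 3 (9.19% to 36.3%, 6 of 31 cells), and both of these include the 13.2% of SHH replicate 2. MYC animals averaged 25.4% ± 14.5 (SD, n = 4) and SHH animals 8.16% ± 7.10 (SD, n = 2), a difference of 17.2 percentage points that did not pass an exact two-sided permutation test over the 6 animals (p = 0.267, adjusted p = 0.533 over 2 share comparisons). Without tumour-gene cells the difference was 16.1 points (exact permutation p = 0.333). With each cell thinned to 1500 UMIs, the shares averaged 35.5% ± 9.12 in MYC animals (n = 4) and 12.8% ± 9.82 in SHH animals (n = 2), and the exact permutation p was 0.067, the smallest that the 15 splits can give. Thinning left out 941 kept cells of MYC replicate 4, against 1132 of SHH replicate 1 and 294 of SHH replicate 2, and none in the other libraries.

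Among all kept cells, the members' share was 1.45%, 0.955%, 4.41% and 4.99% in the MYC animals, against 1.55% and 2.81% in the SHH animals. The groups overlapped. The means were 2.95% ± 2.04 (SD, n = 4) in MYC and 2.18% ± 0.888 (SD, n = 2) in SHH animals (exact permutation p = 0.733). The difference of 0.767 percentage points changed sign to −0.0191 when members with tumour-gene UMIs were left out.

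**Figure D2:**
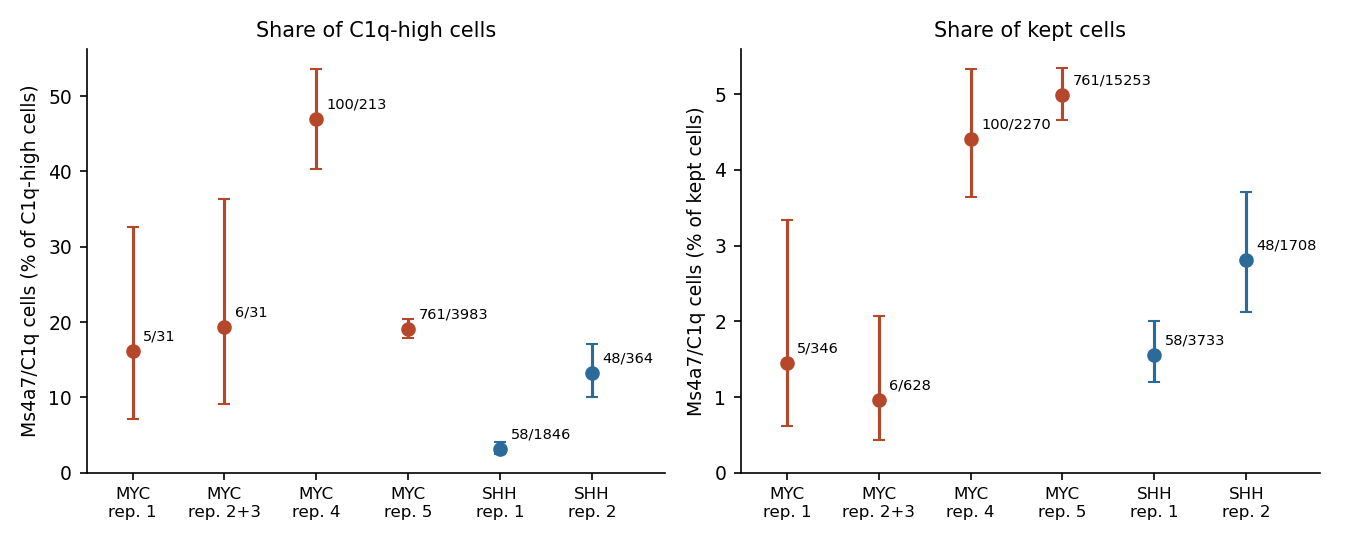
Ms4a7/C1q cells as a percentage of C1q-high cells (left) and of all kept cells (right) in each of 6 animals, with 95% Wilson intervals and the counts behind each point. In the left panel the 4 MYC animals lie above both SHH animals, and in the right panel the groups overlap.

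The macrophage markers Csf1r and Adgre1, outside the rule, were counted in the members of each library with more than 20 members. The label of cells without microglia genes held only for the 4 genes of the rule. Of the rule genes, Ms4a7 stood at 1350 and 1085 CPM in MYC replicates 4 and 5, against 1202 and 1421 CPM in SHH replicates 1 and 2. C1qa stood at 4135 and 2511 CPM, against 6667 and 6722 CPM. Csf1r stood at 591 and 123 CPM in the MYC libraries, against 567 and 738 CPM in the SHH libraries, and Adgre1 at 224 and 61.9 CPM, against 89.8 and 228 CPM. Without tumour-gene cells MYC replicate 5 had 2668 CPM of Ms4a7, 6561 CPM of C1qa, 273 CPM of Csf1r and 167 CPM of Adgre1, and its Adgre1 level was then above that of SHH replicate 1 (87.9 CPM). Of the 414 members of MYC replicate 5 with tumour-gene UMIs, 40.6% held a Csf1r UMI and 20.0% an Adgre1 UMI. In its 347 members without, these shares were 58.2% and 45.5%, so the macrophage label is less certain for the former. The 10 macrophage markers include C1qa and Ms4a7, which chose the cells. These markers summed to 21035 CPM in MYC replicate 4 and 8173 CPM in MYC replicate 5 (20513 CPM in its members without tumour-gene UMIs), against 28183 and 34602 CPM in SHH replicates 1 and 2.

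Other microglia genes remained in the members, most of all in SHH tumours. The 10 microglia markers, 5 of them at 0 in each of these libraries and 4 of those by the rule, summed to 945 and 1669 CPM in MYC replicates 4 and 5, against 4014 and 4700 CPM in SHH replicates 1 and 2. In microglia-gated cells they summed to 2538 CPM in MYC replicate 5, against 12489 and 11174 CPM in the SHH replicates. Microglia-gated cells had at least 3 C1q UMIs, at least 2 UMIs of the 4 microglia genes and no Ms4a7. Sparc, among the 10 markers, made up a large part of the sum in members of MYC replicate 5. In monocyte-gated cells (defined below) it stood at 8.92 and 612 CPM in MYC replicates 4 and 5. Members lay above those cells by log2 differences of 1.16 and 0.734. The sums therefore do not rank MYC replicates 4 and 5 in microglia genes.

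Markers of macrophages at the brain's borders and in tissues were low in MYC replicate 5 and both SHH libraries, and higher in MYC replicate 4. The 9 that the files list summed to 629 CPM in MYC replicate 4 and 109 CPM in MYC replicate 5, against 89.8 and 45.5 CPM in SHH replicates 1 and 2, where 5 and 7 of them were at 0. Mrc1, the mannose receptor, gave 266 and 19.5 CPM in MYC replicates 4 and 5, against 6.91 and 27.3 CPM in the SHH libraries, and 49.4 CPM in MYC replicate 5 without tumour-gene cells. Lyve1 and Cd163 were each counted once in MYC replicate 4 and not in MYC replicate 5 or either SHH library. Monocyte markers summed to 2295 and 1403 CPM in MYC replicates 4 and 5, against 187 and 63.8 CPM in SHH replicates 1 and 2. Plac8 alone made up most of the sum in MYC replicate 5. Its lower level there without tumour-gene cells, and its level in T-gated cells, are given below. The 7 fixed MYC tumour markers summed to 29.5 and 804 CPM in MYC replicates 4 and 5, against 0 in both SHH libraries, and the SHH tumour or neural markers to 0 and 23 CPM, against 504 and 246 CPM. T-gated cells held the SHH tumour or neural markers at 0.542 and 21.8 CPM in MYC replicates 4 and 5, against 367 and 688 CPM in SHH replicates 1 and 2.

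**Figure D3:**
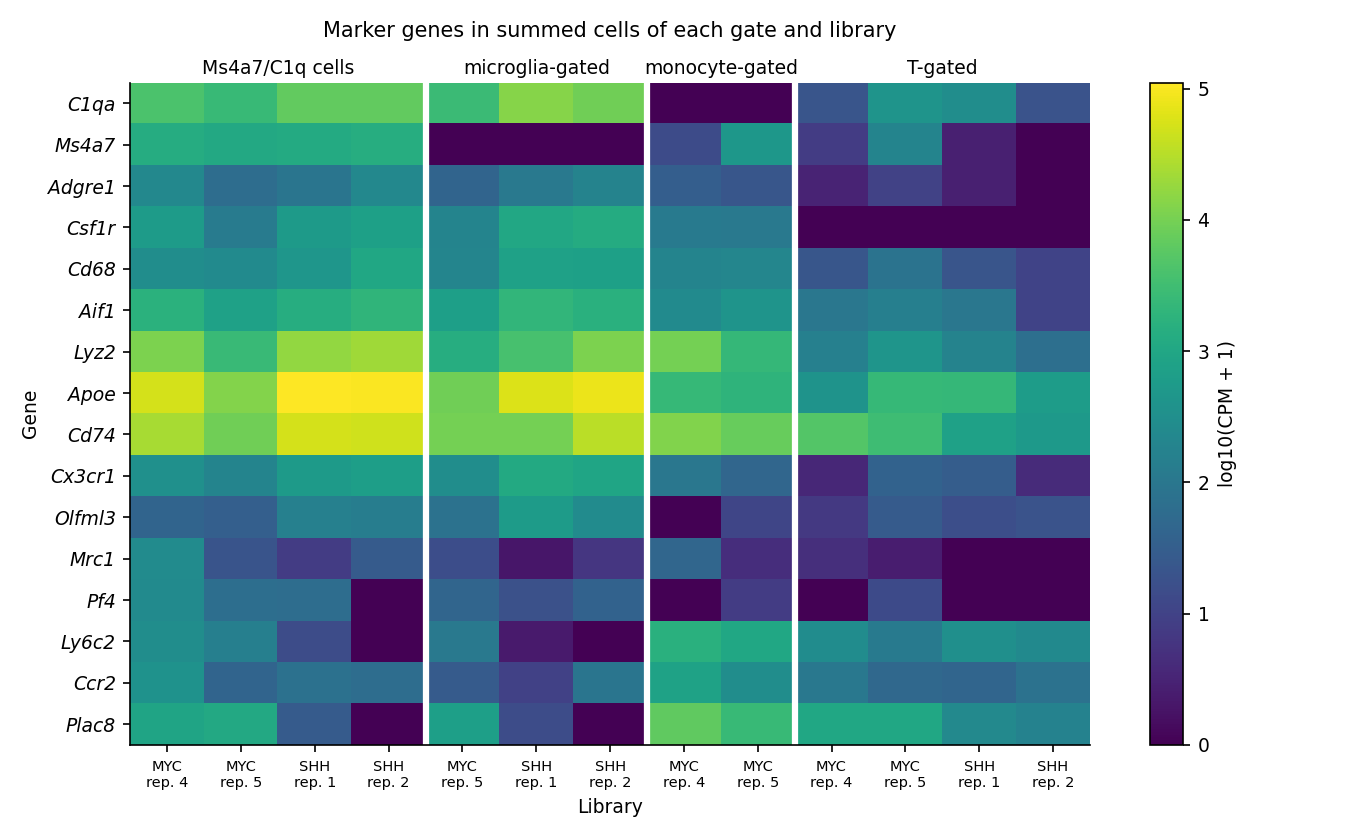
Level of 16 marker genes, as log10(CPM + 1) of UMIs summed over the cells of each gate and library. Ms4a7/C1q cells of both SHH libraries still carry Cx3cr1 and Olfml3, and those of MYC replicates 4 and 5 carry Plac8, Ly6c2 and Ccr2. In the SHH libraries Cx3cr1 was lower in Ms4a7/C1q cells than in microglia-gated cells. Olfml3 was called lower in Ms4a7/C1q cells than in microglia-gated cells.

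The MYC animals outside the tests held few members, and their values are a description of genes picked after they were seen. In the 5 cells of MYC replicate 1, Mmp12, a macrophage elastase, stood at 3996 CPM, Arg1, the arginase of alternatively activated macrophages, at 2198 CPM, and the chemokine gene Ccl7 at 5595 CPM. In the 4 cells of MYC replicate 3, the gelatinase gene Mmp9 stood at 2797 CPM and Ctsk, a collagen-degrading cathepsin, at 4411 CPM. A single member with tumour-gene UMIs held 36752 of the 69366 UMIs of MYC replicate 3, and without it Mmp9 stood at 30.7 CPM and Ctsk at 61.3 CPM.

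Members were next set against the microglia-gated cells of the same animal, which asks what else differed between C1q cells with Ms4a7 and C1q cells with microglia genes. MYC replicate 5 and both SHH animals had more than 20 cells in both gates. With animal as a block, edgeR's quasi-likelihood test (Benjamini-Hochberg adjusted p under 0.05) called 6 genes higher in Ms4a7/C1q cells (0.176% of 3413 tested) and 9 lower (0.264%), with 277 genes (8.12%) at an unadjusted p under 0.05. These include the rule genes Ms4a7, Tmem119 and Siglech, which differ by construction. Of 12 called genes outside the rule, 5 were higher and 7 lower.

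The higher genes included enzymes of lipid and phosphate handling. Pla2g7, a secreted phospholipase that degrades platelet-activating factor, stood at 76.3 CPM in members and 7.29 CPM in microglia-gated cells of MYC replicate 5. The same values were 62.2 and 13.3 CPM in SHH replicate 1, and 255 and 37.9 CPM in SHH replicate 2. The log2 difference was 2.78 ± 0.34 (SE, n = 3 animals, edgeR adjusted p = 0.00598). Acp5, tartrate-resistant acid phosphatase, gave 109 and 48.6 CPM in MYC replicate 5, 290 and 16.7 CPM in SHH replicate 1 and 191 and 27.1 CPM in SHH replicate 2 (log2 difference 2.90 ± 0.52, edgeR adjusted p = 0.0453). Ccl7, which attracts monocytes through CCR2, was higher by 1.78 ± 0.28 on the log2 scale, with 424 and 175 CPM in MYC replicate 5, 235 and 40.9 CPM in SHH replicate 1 and 173 and 70.4 CPM in SHH replicate 2 (edgeR adjusted p = 0.0235). Lyz2 was higher by 1.43 ± 0.24 (edgeR adjusted p = 0.0368), and Ninj1, a membrane protein of plasma membrane rupture, by 1.24 ± 0.22 (edgeR adjusted p = 0.0453). In each of these 5 genes the members were higher in all 3 animals.

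The lower genes included Olfml3 and Cst7, which microglia express, and Cxcl13, a chemokine that attracts B cells. Cxcl13 stood at 56.8 CPM in members and 634 CPM in microglia-gated cells of MYC replicate 5, at 41.5 and 1621 CPM in SHH replicate 1, and at 0 in both gates of SHH replicate 2 (log2 difference −3.91 ± 0.32, edgeR adjusted p = 0.000448), so this call rests on 2 animals. Cst7, a cystatin that activated microglia express, gave 18.7 and 72.9 CPM in MYC replicate 5, 173 and 627 CPM in SHH replicate 1 and 128 and 260 CPM in SHH replicate 2 (−1.61 ± 0.23, edgeR adjusted p = 0.0116). Olfml3, a secreted matrix protein of microglia, was lower by 1.32 ± 0.21 on the log2 scale (edgeR adjusted p = 0.0277). Ltc4s, which makes leukotriene C4, gave 11.8 and 43.8 CPM in MYC replicate 5, 62.2 and 274 CPM in SHH replicate 1 and 27.3 and 217 CPM in SHH replicate 2 (−2.07 ± 0.26, edgeR adjusted p = 0.00632). Bin1, Apoc1 and Cd34 were the other called genes, with log2 differences of −1.14 ± 0.18, −1.83 ± 0.31 and −2.07 ± 0.28 and edgeR adjusted p of 0.0243, 0.0368 and 0.00881. Apoe, the lipid carrier, had a log2 difference of 0.70 ± 0.13 and an edgeR adjusted p of 0.0557 and did not pass.

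By list, 2 of 11 tested homeostatic microglia genes outside the rule were called lower and the list's median log2 difference was −0.72, against −0.01 over all genes tested. The border macrophage list had 1 of 5 called higher, Ninj1, and a median of 0.76. MHC class II and interferon response genes had medians of 0.44 and 0.40 with none called. Without cells that held tumour-gene UMIs in either gate, the test called 9 genes higher and 9 lower (0.471% of 1909 tested each way, 0.943% together), with 12 of the 15 calls retained. Lyz2 then missed the threshold (log2 difference 1.49 ± 0.29, edgeR adjusted p = 0.0768), and Apoc1 was not among the genes tested. Among genes not chosen by the naming rule, and picked after their values were seen, 3 interferon genes were then higher: Rsad2 (viperin, an antiviral enzyme) by 3.23 ± 0.29 on the log2 scale, Ifit3 by 2.01 ± 0.23 and Isg15 (a ubiquitin-like modifier) by 1.03 ± 0.16, with edgeR adjusted p of 0.00464, 0.0126 and 0.0423. Without MYC replicate 5 there were 6 calls, without SHH replicate 1 there were 54 and without SHH replicate 2 there were 83.

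Against monocyte-gated cells (a UMI each of Ly6c2 and Ccr2 and no C1q), only MYC replicates 4 and 5 had more than 20 cells of each kind. The gate set no limit on Siglech, which stood at 1084 and 0 CPM in monocyte-gated cells of MYC replicates 4 and 5. The transcription factor gene Irf8 stood at 1757 and 136 CPM in the same cells. Of the 50 monocyte-gated cells of MYC replicate 5, only 18 held fewer than 5 tumour-gene UMIs, against 98 of 99 in MYC replicate 4. Col1a2 stood at 472 CPM in these cells of MYC replicate 5 and at 8.92 CPM in those of MYC replicate 4. Whether the gate held cells other than monocytes, such as dendritic cells or tumour cells, was not tested. edgeR called no gene among 3515 tested (0%), with 160 (4.55%) at an unadjusted p under 0.05, and DESeq2 called 19. The values of genes by role are therefore given as a description, and were chosen after seeing them. Slpi, a secreted protease inhibitor of monocytes and neutrophils, gave 8.44 CPM in members and 1021 CPM in monocyte-gated cells of MYC replicate 4, and 22.02 and 1266 CPM in MYC replicate 5 (edgeR adjusted p = 0.0525). Apoe gave 51626 and 2408 CPM in MYC replicate 4, and 12809 and 1941 CPM in MYC replicate 5. The chemokine gene Ccl8 gave 1418 and 0 CPM in MYC replicate 4, and 146 and 3.497 CPM in MYC replicate 5. Chil3, a chitinase-like protein of monocytes, gave 54.9 and 334 CPM, and 12.0 and 199 CPM. In both animals Apoe and Ccl8 were higher in members than in the gated cells, and Slpi and Chil3 were lower. The chemokine list had a median log2 difference of 2.18 and the monocyte list −1.39, against 0.00 over all genes tested.

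The last comparison was of Ms4a7/C1q cells of MYC tumours with those of SHH tumours, for 2 animals in each group. edgeR's quasi-likelihood test called 1 gene higher in MYC (0.0422% of 2367 tested) and 2 lower (0.0845%), with 235 (9.93%) at an unadjusted p under 0.05. Both MYC animals lay above both SHH animals for 25.2% of the genes tested and below both for 15.4%. Without the members that held tumour-gene UMIs, 13 genes were higher (0.575% of 2260 tested) and 6 lower (0.265%, or 0.841% either way), and the 3 calls were among them. In that setting both MYC animals lay above both SHH animals for 29% of the genes and below both for 15.3%.

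The called genes were Ly6a, Fabp7 and Ly6h, and their levels in T-gated cells of the same libraries are given beside them. Ly6a, which encodes the GPI-anchored antigen Sca-1 and is induced by interferon, stood at 734 and 2562 CPM in MYC replicates 4 and 5 and was not counted in either SHH library. Against a floor of 3 UMIs over the group (11.8 CPM in SHH), pooled MYC members were at least 140-fold higher (edgeR adjusted p = 0.0462). Without tumour-gene cells the bound was 126-fold. MYC replicate 5 gave most of the pooled MYC UMIs, so these bounds are not minimums for MYC replicate 4. T-gated cells held Ly6a at 597 and 2530 CPM in the MYC libraries, against 386 and 442 CPM in the SHH libraries. Microglia-gated cells held Ly6a at 1910 CPM in MYC replicate 5, against 5.797 and 21.65 CPM in SHH replicates 1 and 2. The higher Ly6a level of MYC replicate 5 was therefore not limited to Ms4a7/C1q cells. Fabp7, a brain fatty acid binding protein of neural progenitors, stood at 0 and 0.786 CPM in MYC replicates 4 and 5, against 283 and 246 CPM in SHH replicates 1 and 2 (log2 fold change −8.49 ± 0.76, edgeR adjusted p = 0.00655). Ly6h, a neuronal relative of Ly6a, stood at 0 and 1.38 CPM, against 152 and 164 CPM (log2 fold change −7.02 ± 0.74, edgeR adjusted p = 0.0119). In T-gated cells Fabp7 stood at 0.54 and 5.92 CPM in the MYC libraries, against 257 and 603 CPM in the SHH libraries, and Ly6h at 0 and 5.23 CPM, against 124 and 202 CPM. Their part in the difference in members was not tested. Without SHH replicate 1 edgeR called 0 genes (135 at an unadjusted p under 0.05), and without SHH replicate 2 it called 1. Without MYC replicate 4 it called 466, and without MYC replicate 5 it called 139. In the setting without tumour-gene cells, leaving out 1 animal gave 161 calls without MYC replicate 4, 146 without MYC replicate 5, 56 without SHH replicate 1 and 34 without SHH replicate 2.

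Without tumour-gene cells, 4 genes of the monocyte list were called higher in MYC: Plac8, Ly6c2, Ms4a4c and S100a6. Over all members Plac8, which monocytes and other leukocytes express, stood at 878 and 1110 CPM in MYC replicates 4 and 5, against 27.6 and 0 CPM in SHH replicates 1 and 2 (log2 fold change 5.89 ± 0.90, edgeR adjusted p = 0.0667). Without tumour-gene cells it stood at 900 and 358 CPM in MYC and the adjusted p was 0.0352 (log2 fold change 5.08 ± 0.89). T-gated cells held Plac8 at 1008 and 994 CPM in MYC, against 234 and 170 CPM in SHH. Ly6c2, a surface antigen of classical monocytes, stood at 303 and 266 CPM in MYC members without tumour-gene UMIs, against 14.7 and 0 CPM in SHH, a ratio of 33.5 with an exact counting interval of 9.21 to 277 (edgeR adjusted p = 0.0341). Ms4a4c, a member of the same family as Ms4a7, stood at 489 and 1493 CPM, against 87.9 and 36.4 CPM in the same setting (log2 fold change 3.74 ± 0.66, edgeR adjusted p = 0.0363), and in T-gated cells at 84.5 and 196 CPM in MYC, against 37.4 and 85.2 CPM in SHH. Clec4a1, a C-type lectin of myeloid cells, stood at 156 and 251 CPM, against 14.7 and 0 CPM (edgeR adjusted p = 0.0404), and at 1.08 and 18.4 CPM in T-gated cells of MYC, against 0 in those of SHH. Lst1, a myeloid membrane adaptor, stood at 1181 and 1026 CPM, against 205 and 209 CPM (log2 fold change 2.22 ± 0.40, edgeR adjusted p = 0.0363), and at 38.5 and 90.7 CPM in T-gated cells of MYC, against 9.57 and 15.8 CPM in those of SHH. MYC lay above SHH without overlap for each of these 5 genes, as for 29% of all genes tested in that setting. Ccl7 stood at 1336 and 1218 CPM, against 249 and 173 CPM (log2 fold change 2.39 ± 0.42, edgeR adjusted p = 0.0352), and was at 0.54 and 67.8 CPM in T-gated cells of MYC, against 1.74 and 0 CPM in those of SHH. Ly6c2, Ms4a4c, Clec4a1, Lst1 and Ccl7 were also higher in microglia-gated cells of MYC replicate 5 than of SHH replicates 1 and 2. There Ly6c2 stood at 107 CPM, against 1.36 and 0 CPM, and Ms4a4c at 311 CPM, against 30.7 and 70.4 CPM. Clec4a1 gave 24.3 CPM, against 0.682 and 0 CPM. Lst1 gave 272 CPM, against 78.1 and 162 CPM, and Ccl7 175 CPM, against 40.9 and 70.4 CPM. Genes named only from the setting without tumour-gene cells, which are Ms4a4c, Clec4a1, Lst1, Ccl7, Cd34 and Fbxo2, were chosen after seeing the data.

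S100a6, a calcium binding protein, depended on the tumour-gene cells in size. Over all members it stood at 506 and 4691 CPM in MYC replicates 4 and 5, against 55.3 and 9.11 CPM in SHH replicates 1 and 2. Without tumour-gene cells it stood at 471 and 1125 CPM, against 58.6 and 9.11 CPM (log2 fold change 4.26 ± 0.73, edgeR adjusted p = 0.0352). T-gated cells held it at 2111 and 5678 CPM in MYC, against 768 and 2317 CPM in SHH.

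Without tumour-gene cells, Serpine2, Cd34 and Fbxo2 were called lower in MYC, beside Fabp7 and Ly6h. Serpine2, a serpin made by glia and other cells, stood at 0 and 4.52 CPM in all members of MYC, against 117 and 128 CPM in SHH (edgeR adjusted p = 0.0667), and the adjusted p was 0.00700 without tumour-gene cells. Cst7 stood at 21.1 and 18.7 CPM, against 173 and 128 CPM, with 43.2 CPM in MYC replicate 5 without tumour-gene cells, and passed in neither setting (edgeR adjusted p = 0.134, and 0.0855 without tumour-gene cells). Cd34 and Fbxo2 had edgeR adjusted p of 0.0352 and 0.0134 without tumour-gene cells. Fbxo2, an F-box protein of neurons, was at 2.17 and 27.1 CPM in T-gated cells of MYC, against 33.1 and 82.1 CPM in those of SHH.

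The other called genes encode ATP synthase and ribosomal proteins. Atp5k, a subunit of mitochondrial ATP synthase, stood at 473 and 568 CPM in MYC replicates 4 and 5, against 20.7 and 72.9 CPM in SHH replicates 1 and 2 (edgeR adjusted p = 0.152, and 0.0352 without tumour-gene cells). T-gated cells held it at 447 and 593 CPM in MYC, against 57.4 and 110 CPM in SHH. The ribosomal protein genes Rps28, Rps29, Rpl38 and Rpl39 were also called higher without tumour-gene cells. Rps29 stood at 5426 and 7524 CPM over all members in MYC, against 560 and 1248 CPM in SHH, and at 5366 and 7736 CPM in T-gated cells of MYC, against 662 and 1402 CPM in those of SHH. The part of library differences in these values was not tested.

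**Figure D4:**
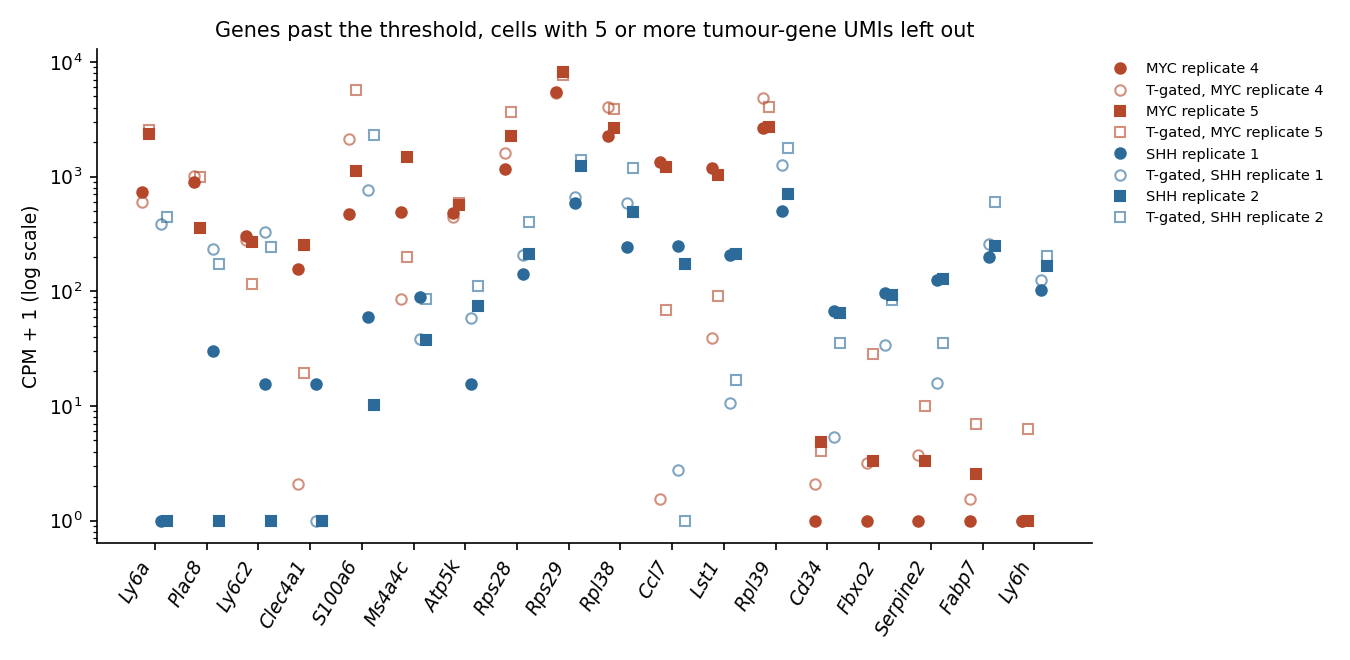
CPM + 1 on a log scale of 18 of the 19 genes that passed edgeR's threshold without tumour-gene cells, in Ms4a7/C1q cells (filled) and T-gated cells (open) of MYC replicates 4 and 5 and SHH replicates 1 and 2. Ccl7 and Lst1 are high in MYC members and low in T-gated cells, while Rps29 and Atp5k are higher in both kinds of MYC cell.

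The counts of list genes below are read against the 25.2% of all genes tested that lay above without overlap and the 15.4% that lay below. Counts without tumour-gene cells are read against the 29% above and 15.3% below of that setting. Of the gene lists, the monocyte list had the highest median. Of its 10 tested genes, 8 lay above both SHH animals in both MYC animals, with a median log2 fold change of 3.32, against 0.07 over all 2367 genes. Without tumour-gene cells, all 9 tested lay above, the median stayed at 3.32 and 4 were called. The S100 and annexin list had 9 of 12 above and a median of 1.16, and 8 of 12 and 1.10 without tumour-gene cells. In the interferon response list, 10 of 19 tested genes lay above, with a median of 0.99 and 1.03 without tumour-gene cells, and none was called. Ifi27l2a, an interferon-induced mitochondrial protein, stood at 2937 and 7857 CPM in MYC, against 940 and 947 CPM in SHH. Isg15 stood at 637 and 1738 CPM, against 249 and 291 CPM, and Bst2 (tetherin) at 650 and 1809 CPM, against 456 and 583 CPM. Ifi27l2a, Isg15 and Bst2 were also higher in microglia-gated cells of MYC replicate 5 than in those of SHH replicates 1 and 2. There Ifi27l2a stood at 6057 CPM, against 996 and 855 CPM, and Isg15 at 1257 CPM, against 149 and 130 CPM. Bst2 stood at 1662.5 CPM, against 293 and 509 CPM.

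Genes of antigen presentation by MHC class II did not pass the test, and 8 of 9 had lower values in both MYC animals than in both SHH animals. The median log2 fold change was −1.24, and −1.03 without tumour-gene cells. Cd74, the invariant chain, stood at 24246 and 8864 CPM in MYC replicates 4 and 5, against 52732 and 47198 CPM in SHH replicates 1 and 2. H2-Ab1, the beta chain of I-A, stood at 9317 and 3614 CPM, against 16589 and 11604 CPM. Without tumour-gene cells MYC replicate 5 had 18387 CPM of Cd74 and 7220 CPM of H2-Ab1, both still below the SHH libraries. In microglia-gated cells both genes of MYC replicate 5 lay between SHH replicates 1 and 2. Cd74 stood there at 9863 CPM, against 9823 and 33451 CPM, and H2-Ab1 at 4142 CPM, against 2229 and 8895 CPM. The 13 tested MHC class I genes had a median of 0.07, and the 14 tested without tumour-gene cells 0.28.

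Of homeostatic microglia genes outside the rule, 5 of 8 had lower values in both MYC animals, with a median of −1.25, and −0.96 without tumour-gene cells. Cx3cr1, the fractalkine receptor, stood at 346 and 185 CPM, against 553 and 683 CPM, and at 458 CPM in MYC replicate 5 without tumour-gene cells. The lysosome list had 9 of 17 below with a median of −0.97, but 5 of 18 and −0.52 without tumour-gene cells, and the lipid and damage list 8 of 16 below with a median of −1.02, and again 8 of 16 with −0.73 without tumour-gene cells. Apoe stood at 51626 and 12809 CPM in MYC, against 110935 and 105272 CPM in SHH, and at 51429 and 29997 CPM in MYC without tumour-gene cells (log2 fold change −1.61 ± 0.46, edgeR adjusted p = 0.160). Ctsd, the aspartic protease cathepsin D, stood at 1646 and 378 CPM, against 3005 and 6950 CPM, and at 709 CPM in MYC replicate 5 without tumour-gene cells. Cx3cr1, Apoe and Ctsd were also lower in microglia-gated cells of MYC replicate 5 than in those of SHH replicates 1 and 2. There Cx3cr1 stood at 294 CPM, against 1175 and 915 CPM. Apoe gave 9017 CPM, against 59680 and 77567 CPM, and Ctsd 600 CPM, against 9667 and 8099 CPM. The receptors of CSF and TGF beta had 4 of 11 below and a median of −0.996, and without tumour-gene cells 3 of 11 and −0.81, against 15.4% and 15.3% below over all genes tested. Tgfbr1, a TGF beta receptor kinase, stood at 148 and 49.5 CPM, against 276 and 446 CPM, and at 101 CPM in MYC replicate 5 without tumour-gene cells.

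Chemokine genes did not move one way: 6 of 14 lay above and 3 below, against 25.2% above and 15.4% below over all genes tested, with a median of 0.95. Without tumour-gene cells 7 lay above and 2 below, with a median of 1.22. Ccl8 stood at 1418 and 146 CPM in MYC, against 69.1 and 0 CPM in SHH, and at 456 CPM in MYC replicate 5 without tumour-gene cells. Ccl4, which attracts monocytes and lymphocytes, stood at 1599 and 455 CPM, against 1506 and 565 CPM, so that the groups overlapped, as they did with 1223 CPM in MYC replicate 5 without tumour-gene cells. Of alternative activation genes, 4 of 9 lay above in both settings, with a median of 1.25, and 1.47 without tumour-gene cells. Arg1 stood at 498 and 86.3 CPM, against 76.0 and 0 CPM, and without tumour-gene cells at 510 and 62.5 CPM, against 80.6 and 0 CPM, where the groups overlapped. Retnla, which encodes RELMα, stood at 582 and 0 CPM in MYC, against 6.91 and 1731 CPM in SHH, and varied more within groups than between them. The transcription factor list had 2 of 18 above, 5 below and a median of −0.03, which was 0.08 without tumour-gene cells and 0.10 with DESeq2, where the median over all genes was −0.14. In it Irf8, an interferon regulatory factor of mononuclear phagocytes, stood at 190 and 166 CPM in MYC, against 587 and 656 CPM in SHH, and at 398 CPM in MYC replicate 5 without tumour-gene cells. Microglia-gated cells held Irf8 at 343 CPM in MYC replicate 5, against 851 and 861 CPM in SHH replicates 1 and 2.

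**Figure D5:**
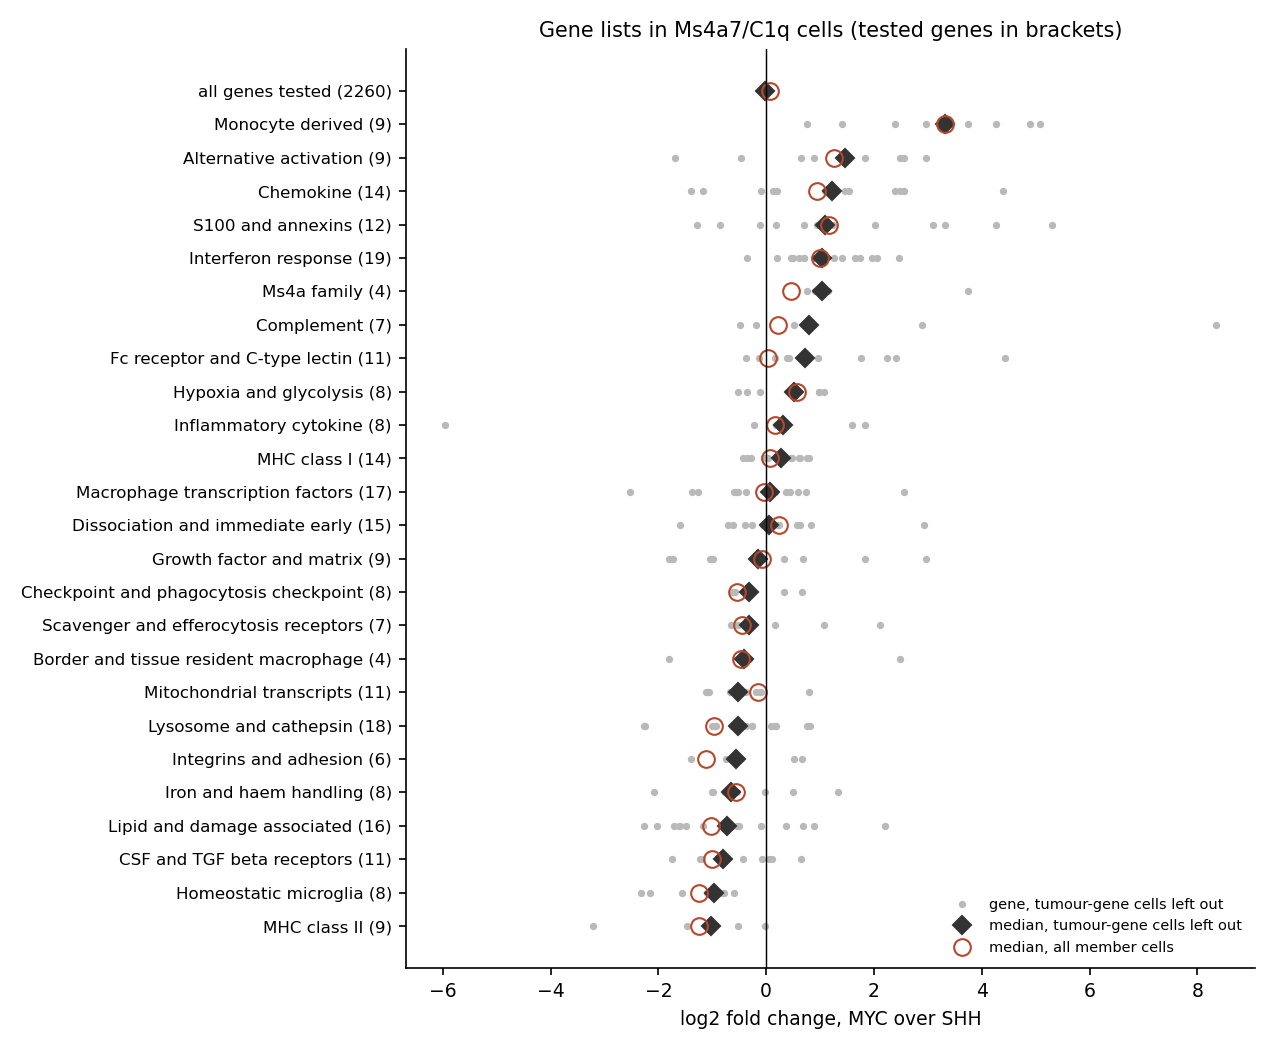
Median log2 fold change, MYC over SHH, of 25 gene lists and of all genes tested, over all members (open circles) and without tumour-gene cells (diamonds), with single genes of that second setting as grey points. The monocyte list lies at 3.32 in both settings and MHC class II at −1.24 and −1.03.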

How the data were processed

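Droplet-based 3′ libraries (10x) were made from dissociated tumours after enzymatic dispersal, red cell lysis and a sort of live cells, per the labels' protocols. The deposited values were raw UMI counts per gene and cell, made with Cell Ranger 2.0.2 on mm10, per the submitters' processing notes; the annotation was not given in the sources used here, and reads of near-identical genes (H2, Ly6 and Ccl families) may have been split between them. The files hold 24433 barcodes and list genes found in at least 3 barcodes of a library. The filters above kept 23938, while the study states 24199 cells; its filters were not given in the sources used here.

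UMIs were summed per animal and gate, with MYC replicates 2 and 3 joined, and tested with edgeR 4.0.16 (R 4.3.3; limma 3.58.1): TMM factors, filterByExpr, quasi-likelihood test, Benjamini-Hochberg adjustment over all genes tested, threshold 0.05, at least 20 cells per animal. Errors are standard errors of log2 fold changes, taken from the log2 fold change and the test's F statistic. DESeq2 1.42.0 was an alternative. Shares were compared by exact two-sided permutation over animals (scipy 1.17.1), and intervals and floors (3 UMIs) cover counting error only. Doublets were not removed; a Scrublet score (scanpy 1.11.5) marking the top 0.8% per 1000 cells was an alternative. On simulated counts of the MYC and SHH comparison, 35.8% of 4-fold and 100% of 16-fold changes were recovered. These counts were drawn with a fixed dispersion, not that of the data, so recovery in the data can be lower. Over all members, Plac8 differed by more than 16-fold and was not called.

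Genes were named by a rule: the rule genes and markers, the 10 smallest p-values of MYC against SHH (fewer than 5 passed), up to 4 members of each list with the highest levels plus those that passed, and the 8 largest and 8 smallest called differences between gates. A few genes that the rule names are not reported here. Members, lists and rule were chosen with earlier results of these data known.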

Additional observations from a re-analysis of the deposited data

Results flagged for a closer look

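The share of Ms4a7/C1q cells among C1q-high cells was 46.95% in MYC replicate 4, far from the other MYC animals, which lay at 16.1%, 19.4% and 19.1%. The gap to its neighbour was 0.895 of the whole range of the 4 animals. With each cell thinned to 1500 UMIs the MYC replicate 4 share was 45.7% and that of MYC replicate 5 was 39.0%, so that the gap was smaller. The median UMI count of kept cells was 1728 in MYC replicate 4 and 6060 in MYC replicate 5.

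C1qb, a gene of the rule, stood at 4498 CPM in members of MYC replicate 4, against 1713 to 1882 CPM in the other MYC animals, 2 of which rest on 5 and 6 cells. Without tumour-gene cells C1qb stood at 4541 CPM in MYC replicate 4 and 4776 CPM in MYC replicate 5, so that MYC replicate 4 no longer stood apart. Chance flags about 1 in 20 groups of this kind, and 10 quantities were looked at.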

How the results depend on the processing

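In the order MYC against SHH, members against microglia-gated cells and members against monocyte-gated cells, the main settings called 3, 15 and 0 genes. With no filter on low counts these were 155, 74 and 134, with DESeq2 34, 27 and 19, and without Scrublet-marked cells 1, 9 and 4. Members with at least 2 Ms4a7 UMIs gave 23 and 21 calls against microglia- and monocyte-gated cells. Against monocyte-gated cells RLE factors gave 4 and a minimum of 10 cells 19. For MYC against SHH, allowing 1 microglia-gene UMI gave 7, sequencing runs as a covariate 15, leaving out tumour-gene cells 19, and requiring 10 C1q UMIs in addition 36. Leaving out 1 animal gave 0 to 466 calls for MYC against SHH and 6 to 83 against microglia-gated cells, and the cause was not tested. Without the replicate block (the animal), edgeR called 2 genes against microglia-gated cells and 0 against monocyte-gated cells. No paired analysis was possible because the MYC and SHH animals share replicate numbers given in accession order only.

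The difference in the share of kept cells was −0.0191 points without tumour-gene cells, against 0.767, and ran from 0.0866 to 1.43 when 1 animal was left out. The difference in the share of C1q-high cells stayed positive in every setting tried, from 10.0 to 24.6 points. Against monocyte-gated cells, leaving out an animal leaves no residual degrees of freedom and was not run, nor was the setting without tumour-gene cells, which leaves MYC replicate 5 with 18 monocyte-gated cells. With at most 2 animals a group, and 109792 UMIs in the shallowest sum, low genes and small differences could not be resolved.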
